A study of Mus musculus with 21 samples.

Results

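The genes described here are 32 enzymes, regulators and transporters of sterol and fatty acid metabolism, taken by name from a list drawn up with earlier results of these data known. Of the 32, 31 were measured among 18193 genes on the arrays, and Acat2 was not analysed because no probe set carried its symbol alone. By role they were 17 measured sterol synthesis enzymes, 5 regulators of the SREBP pathway, 3 sterol transport genes and 6 fatty acid synthesis enzymes. Each gene was read from the one of its probe sets with the highest mean over all arrays, as a linear signal intensity after quantile normalization, and tests were made on log2(signal + 1).

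The cells were nephron progenitors, the mesenchymal cells from which nephrons form, sorted by GFP from kidneys of E16.5 embryos of mixed background carrying a Six2 GFPcre BAC transgene, and all 7 groups share that transgene. There were 3 arrays in each of 7 groups, 21 in all. The groups were aggregates treated with BIO for 24 h and again for another 24 h, aggregates treated with BIO for 24 h and then DMSO for 24 h, aggregates in BIO for 24 h, aggregates in DMSO for 24 h, dispersed cells in BIO for 24 h, dispersed cells in DMSO for 24 h, and freshly sorted cells. Cultures used 10% serum in DMEM, with BIO at 4 µM or an equal volume of DMSO, and a sample held 40000 cells. BIO is an indirubin inhibitor of the kinase GSK3 and is used to switch on canonical Wnt signalling. No group was kept in DMSO alone for 48 h, so the second day carries time in culture as well as treatment. The labels call the samples biological replicates without saying whether they came from separate litters or cultures, so the p-values reflect how far these arrays scatter, and that scatter may be technical.

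Cholesterol is built from acetyl-CoA through mevalonate, isoprenoids, squalene and lanosterol, and fatty acids are built from the same precursor by acetyl-CoA carboxylase and fatty acid synthase. Most genes of both routes are targets of the SREBP transcription factors, which Scap carries from the endoplasmic reticulum to be cut and which Insig proteins hold back while sterols are plentiful. The nuclear receptor LXR, which senses oxidised sterols, drives the export pumps Abca1 and Abcg1.

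On each array 75.9 to 79.6% of genes exceeded a background signal of 41.9. A total of 4 arrays stood apart from their groups by more than 0.4 (log2) in the 3' beta-actin control probe set: BIO, BIO aggregates replicate 1, BIO aggregates at 24 h replicate 3, DMSO aggregates replicate 3 and fresh cells replicate 1. The ratio of the 3' to the 5' Gapdh control, a measure of RNA quality, averaged 8.14 in aggregates kept in BIO and 10.8 in those moved to DMSO. At 24 h it averaged 13.4 with BIO and 14.2 with DMSO in aggregates, 9.79 with BIO and 12.1 with DMSO in dispersed cells, and it was 9.50 in fresh cells. The 3' beta-actin control averaged 3706 ± 1487 in BIO aggregates at 24 h and 10556 ± 2545 in DMSO aggregates at 24 h (SD, n = 3 each). Six2 was above background on all 21 arrays, whereas the progenitor marker Cited1 exceeded it on 3. The summed signal of 8 progenitor markers was at most 13775 in any culture and at least 33609 in fresh cells. With BIO 2 of these markers were higher and 6 lower in aggregates (median -1.11, log2), and 2 were higher and 5 lower in dispersed cells (median -1.03). The summed signal of 6 interstitial stroma markers was 3400 to 3757 in BIO aggregates and 12860.0 to 13739 in DMSO aggregates, and 3017 to 3247 in dispersed cells with BIO and 12121 to 13003 in dispersed cells with DMSO. On the second day it was 1806 to 2344 with BIO and 9515 to 10985 with DMSO. Over all arrays, summed signals were 397 to 747 for 5 ureteric bud markers and 307 to 716 for 5 endothelial markers. Those of 5 leukocyte markers were 671 to 749 with BIO and 1123 to 1142 with DMSO in dispersed cells, and those of 3 erythroid markers at most 147 in any culture and 237 to 270.1 in fresh cells. The part of these shifts in the lipid gene results was not tested. In RNA from whole samples, fewer cells of a type and less RNA per cell cannot be told apart.

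Every measured lipid gene had a mean above background in every group. Scd2, a stearoyl-CoA desaturase, had array signals between 10921 and 13175, and Acly, which makes cytosolic acetyl-CoA from citrate, between 7743 and 9269.6. Mvk, mevalonate kinase, exceeded background on 20 of 21 arrays, with signals of 36.7 to 288, and the other genes did so on all 21. At the probe sets used, the group means of Scd2 differed by at most 1.11-fold and those of Abca1 by 6.40-fold. There Scd2, Acly and Srebf2 passed the test in none of the 12 comparisons. A dimmer Scd2 probe set averaged 311 with DMSO and 411 with BIO in aggregates at 24 h, and 268 and 368 in dispersed cells. On the second day it averaged 387 with DMSO and 533 with BIO. Another averaged 162 and 134 in aggregates and 151 and 163 in dispersed cells. On the second day that one gave 480 ± 9 and 370 ± 282 (SD).

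**Figure D1:**
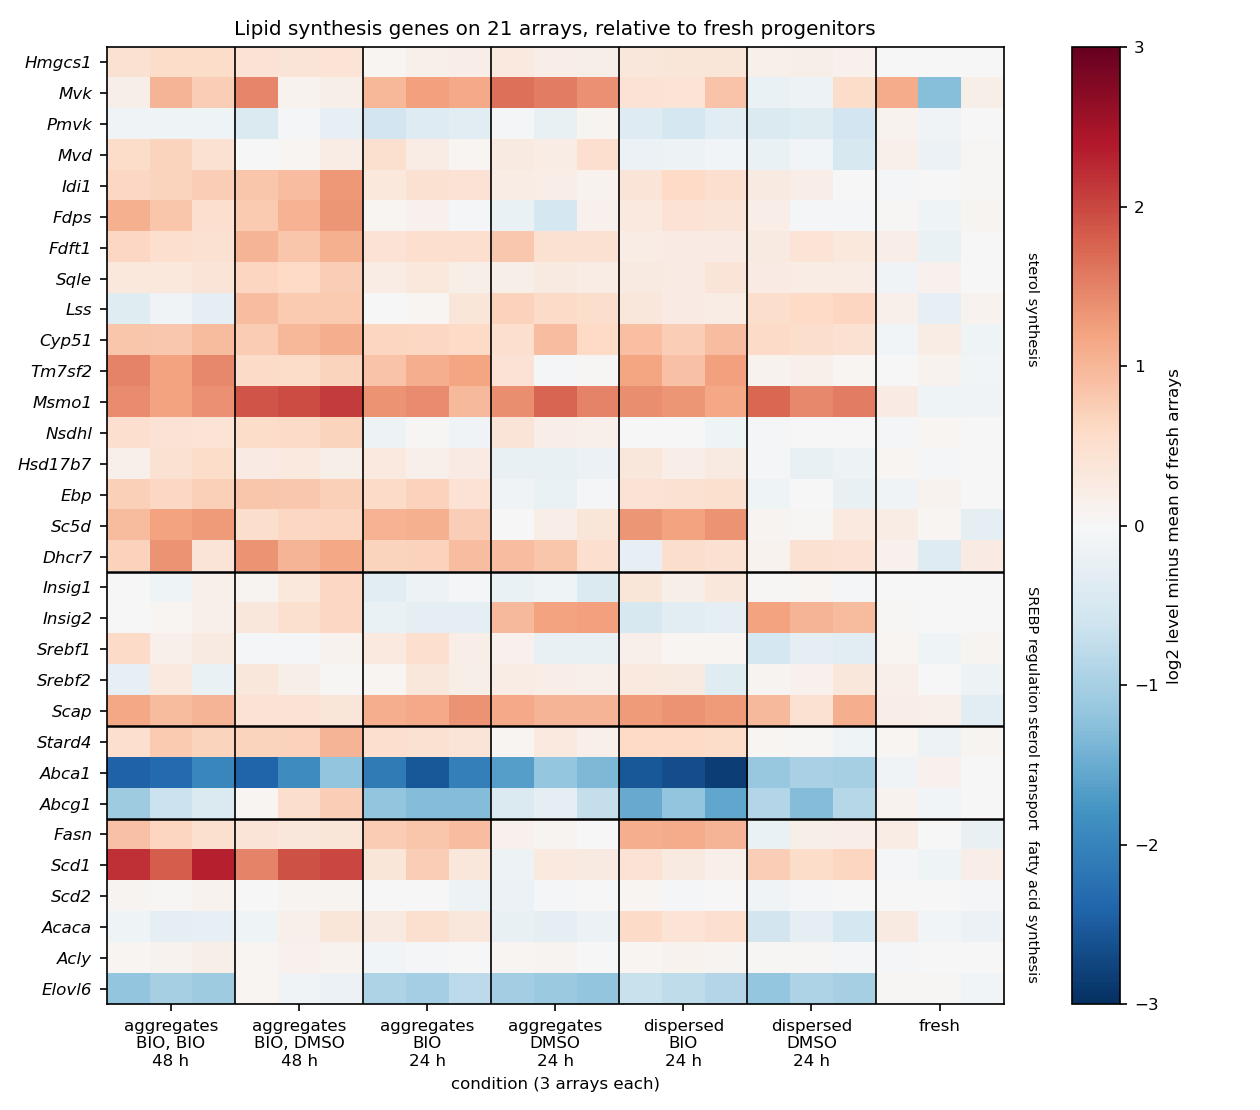
Heatmap of 31 lipid genes (rows, by role) on 21 arrays (columns, 3 for each condition), coloured by log2 level minus the mean of the fresh arrays. Msmo1 is red in every culture and Abca1 blue in every culture, Elovl6 is near the fresh level in aggregates moved from BIO to DMSO, and Scd1 is deepest red at 48 h.

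In aggregates after 24 h, BIO raised 7 of the 31 genes and lowered 6. Of all genes 30.0% passed, 17.5% higher and 12.5% lower, and the median of the listed genes was 0.01 (log2), against 0.09 over all genes. In dispersed cells 12 rose and 2 fell, beside 28.8% of all genes, 15.3% higher and 13.4% lower, with medians of 0.20 and 0.02. A set of 7 genes rose with BIO in both formats: Tm7sf2, Hsd17b7, Ebp, Sc5d, Srebf1, Fasn and Acaca. Insig2 and Abca1 fell in both, and no gene passed in opposite directions. With the mean of all probe sets of a gene, Abca1, Abcg1, Acaca and Hsd17b7 lost their calls in aggregates, where Hmgcs1 was newly called. In dispersed cells Cyp51, Hmgcs1, Sc5d and Scap lost theirs, and Lss was newly called. The share of listed genes passing was 41.9% in aggregates and 45.2% in dispersed cells. Among 11500 genes above background on all arrays it was 39.9% in aggregates and 38.2% in dispersed cells, and 21.2% of the 11500 were higher in dispersed cells.

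The regulator Insig2, which retains the SREBP-Scap complex in the endoplasmic reticulum, gave the most marked response by p-value among the listed genes. Its signal was 1556, 1454 and 1448 in BIO aggregates and 3466, 4127 and 4159.8 in DMSO aggregates. In dispersed cells it was 1266, 1404 and 1486 with BIO and 4107, 3623 and 3463 with DMSO. Every BIO array lay below every DMSO array in both formats. The log2 difference was -1.39 ± 0.10 (adjusted p = 2.12e-08) in aggregates and -1.43 ± 0.10 (adjusted p = 1.29e-08) in dispersed cells (± SE here and below, limma with Benjamini-Hochberg adjustment over all genes). All 3 probe sets of Insig2 fell in both formats, and the next brightest gave -1.70 ± 0.13 (adjusted p = 9.98e-08) in aggregates and -1.73 ± 0.13 (adjusted p = 7.02e-08) in dispersed cells. Its paralogue Insig1 did not pass in either format, with 0.08 ± 0.12 in aggregates and 0.27 ± 0.12 in dispersed cells. Srebf1, the gene of the SREBP that favours fatty acid synthesis, rose by 0.45 ± 0.13 (adjusted p = 0.0117) in aggregates and 0.45 ± 0.13 (adjusted p = 0.0118) in dispersed cells. Srebf2, the gene of the SREBP that favours sterol synthesis, gave -0.00 ± 0.17 and -0.11 ± 0.17, with 95% intervals of -0.37 to 0.36 and -0.47 to 0.25. Scap rose in dispersed cells by 0.45 ± 0.15 (adjusted p = 0.0352) and gave 0.13 ± 0.15 in aggregates. The Scap call was lost with the mean of all its probe sets. The Srebf1 call in aggregates was lost without BIO aggregates replicate 2 or DMSO aggregates replicate 2 or 3 (0.37 to 0.39, adjusted p of 0.053 to 0.0636), that in dispersed cells without DMSO dispersed cells replicate 1 (0.37, adjusted p = 0.0629), and the Scap call without BIO dispersed cells replicate 1, 2 or 3 or DMSO dispersed cells replicate 2 (0.26 to 0.47, adjusted p of 0.0686 to 0.199).

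Among sterol synthesis enzymes, 4 of 17 rose and 3 fell with BIO in aggregates, and 7 rose and none fell in dispersed cells. Rising in both formats were Tm7sf2, Sc5d, Ebp and Hsd17b7. Tm7sf2, a sterol C14 reductase, had signals of 655, 778 and 833 in BIO aggregates and 493, 357 and 371 in DMSO aggregates. In dispersed cells its signals were 828, 675 and 853 with BIO and 393, 403 and 380.4 with DMSO. The groups did not overlap in either format, and the differences were 0.90 ± 0.13 (adjusted p = 5.48e-05) and 0.99 ± 0.13 (adjusted p = 1.95e-05). Sc5d, the sterol C5 desaturase, had signals of 905, 918 and 741 in BIO aggregates and 435, 505 and 569 in DMSO aggregates. With BIO in dispersed cells Sc5d reached 1109, 1019.6 and 1131, against 470.1, 451 and 541 with DMSO. Sc5d was higher with BIO on every array, by 0.76 ± 0.14 (adjusted p = 0.000438) in aggregates and 1.16 ± 0.14 (adjusted p = 7.08e-06) in dispersed cells. Ebp, the sterol isomerase, had signals of 1135, 1241 and 1028 in BIO aggregates and 711, 665 and 735 in DMSO aggregates, and 1028, 1051 and 1060.1 in BIO dispersed cells and 700.2, 765 and 655 in DMSO dispersed cells. Its groups did not overlap, at 0.69 ± 0.09 (adjusted p = 1.24e-05) in aggregates and 0.57 ± 0.09 (adjusted p = 8.54e-05) in dispersed cells. Hsd17b7, a sterol ketoreductase, had signals of 2768, 2519.7 and 2708 in BIO aggregates and 1945, 1955 and 2019 in DMSO aggregates, and 2878, 2616 and 2725 in BIO dispersed cells and 2161, 1954 and 2048 in DMSO dispersed cells. These groups were apart too, at 0.43 ± 0.09 (adjusted p = 0.00139) in aggregates and 0.42 ± 0.09 (adjusted p = 0.002) in dispersed cells. For Sc5d and Hsd17b7 the next brightest probe set did not pass in either format, and its values are given with the other probe sets.

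Other sterol enzymes passed in one format. In aggregates Lss, which closes squalene epoxide to lanosterol, fell by 0.46 ± 0.12 (adjusted p = 0.00625), Pmvk, phosphomevalonate kinase, by 0.37 ± 0.11 (adjusted p = 0.0171) and Nsdhl, a sterol dehydrogenase, by 0.33 ± 0.08 (adjusted p = 0.00395). In dispersed cells Hmgcs1, which makes HMG-CoA, rose by 0.20 ± 0.06 (adjusted p = 0.0205), Idi1, the isopentenyl isomerase, by 0.35 ± 0.11 (adjusted p = 0.0267) and Cyp51, the lanosterol demethylase, by 0.33 ± 0.12 (adjusted p = 0.049). Mvk, Mvd, Fdps, Fdft1, Sqle, Msmo1 and Dhcr7 passed in neither format. These enzymes span mevalonate phosphorylation, prenyl and squalene synthesis and later ring steps. Single arrays decided several of these calls. The Cyp51 call was lost without BIO dispersed cells replicate 1, 2 or 3 or DMSO dispersed cells replicate 1, 2 or 3 (0.29 to 0.38, adjusted p of 0.0516 to 0.142), and the Pmvk call without BIO aggregates replicate 1 or DMSO aggregates replicate 3 (-0.30 to -0.29, adjusted p of 0.0844 to 0.0855). The Idi1 call was lost without BIO dispersed cells replicate 2 or 3 or DMSO dispersed cells replicate 3 (0.27 to 0.34, adjusted p of 0.0679 to 0.13), and the Hmgcs1 call without BIO dispersed cells replicate 2 or 3 or DMSO dispersed cells replicate 3 (0.19 to 0.20, adjusted p of 0.0527 to 0.0693).

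Of 3 sterol transport genes, 2 fell with BIO in aggregates, and in dispersed cells 1 rose and 1 fell. Abca1, which exports cholesterol to lipid-poor apolipoproteins, had signals of 350.0, 263 and 371 in BIO aggregates and 491, 683 and 601 in DMSO aggregates. In dispersed cells they were 264, 242 and 215 with BIO and 699, 783 and 765 with DMSO. BIO arrays were the lower ones throughout, with differences of -0.85 ± 0.23 (adjusted p = 0.0106) and -1.64 ± 0.23 (adjusted p = 4.72e-05). A second, dimmer probe set had mean signals of 88 with BIO and 85 with DMSO in aggregates, and 54 and 75 in dispersed cells. With the mean of all Abca1 probe sets the call in aggregates was lost and that in dispersed cells held. The call in aggregates was lost without BIO aggregates replicate 2 or DMSO aggregates replicate 2 (-0.74 to -0.70, adjusted p of 0.0506 to 0.057). Abcg1, which passes cholesterol to lipoprotein particles, fell in aggregates by 0.79 ± 0.19 (adjusted p = 0.00453) and gave -0.41 ± 0.19 (adjusted p = 0.136) in dispersed cells. The Abcg1 call in aggregates was also lost with the mean of all its probe sets. Stard4, a carrier of cholesterol between membranes, rose in dispersed cells by 0.59 ± 0.11 (adjusted p = 0.000515) and gave 0.28 ± 0.11 (adjusted p = 0.06) in aggregates.

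Of 6 fatty acid synthesis genes, 2 rose and none fell with BIO in each format. Fasn, fatty acid synthase, had signals of 2664, 2832 and 3011 in BIO aggregates and 1731, 1679.6 and 1579 in DMSO aggregates. In dispersed cells Fasn gave 3383, 3445 and 3191 with BIO and 1389, 1779.5 and 1819 with DMSO. The groups were separate, with differences of 0.77 ± 0.13 (adjusted p = 0.000176) and 1.02 ± 0.13 (adjusted p = 1.06e-05). Acaca, acetyl-CoA carboxylase, had signals of 1354, 1575 and 1407 in BIO aggregates and 958, 922 and 996 in DMSO aggregates, and 1677, 1492 and 1591 in BIO dispersed cells and 760.2, 933 and 774 in DMSO dispersed cells. No BIO array overlapped a DMSO array of its format. Its differences were 0.59 ± 0.13 (adjusted p = 0.00231) in aggregates and 0.95 ± 0.13 (adjusted p = 3.08e-05) in dispersed cells. With the mean of all Acaca probe sets the call in aggregates was lost and that in dispersed cells held. Elovl6, which lengthens palmitate, gave 0.20 ± 0.09 (adjusted p = 0.131) and 0.25 ± 0.09 (adjusted p = 0.0587). Scd1, a desaturase, gave 0.34 ± 0.17 in aggregates and -0.36 ± 0.17 in dispersed cells. At its brightest probe set Scd2 gave 0.03 ± 0.07 in aggregates and 0.05 ± 0.07 in dispersed cells.

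**Figure D2:**
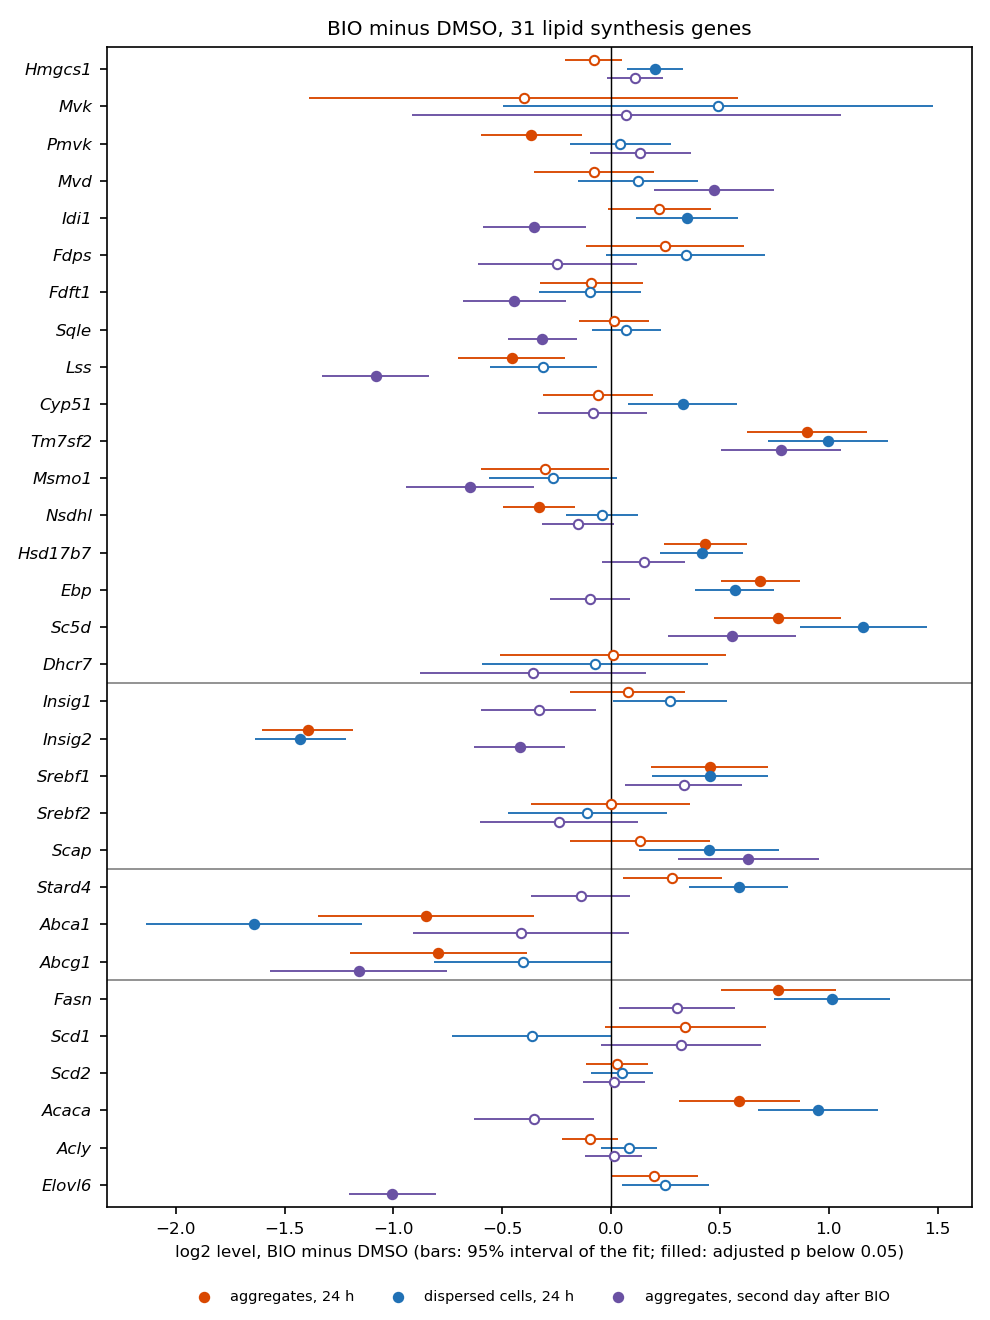
BIO minus DMSO (log2, horizontal axis) for 31 lipid genes in aggregates at 24 h, dispersed cells at 24 h and aggregates on the second day, with 95% intervals of the fit and filled points where the adjusted p was below 0.05. Insig2 lies near -1.4 in both 24 h comparisons, and Lss and Elovl6 lie furthest left among the enzymes on the second day.

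The 3' beta-actin control, lower in BIO aggregates by the means given above, was added as a covariate, and 4 of the 13 calls in aggregates held. These were Insig2 at -1.62 (adjusted p = 2.48e-05), Tm7sf2 at 1.29 (adjusted p = 0.00113), Fasn at 0.97 (adjusted p = 0.013) and Ebp at 0.62 (adjusted p = 0.0216). The control follows the treatment in this comparison, so its part and that of BIO cannot be told apart, and a lost call does not decide between them. The same applies to other comparisons with BIO aggregates at 24 h, where the control was lowest of all groups. In dispersed cells, where the control averaged 8929 ± 296 with BIO and 12104 ± 181 with DMSO, 13 genes passed with the covariate. Leaving out the 4 arrays that stood apart gave 12 calls in aggregates and 14 in dispersed cells. None of these arrays was of dispersed cells, so that count could move only through the shared spread. There the Cyp51 call was lost and Lss was newly called.

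**Figure D3:**
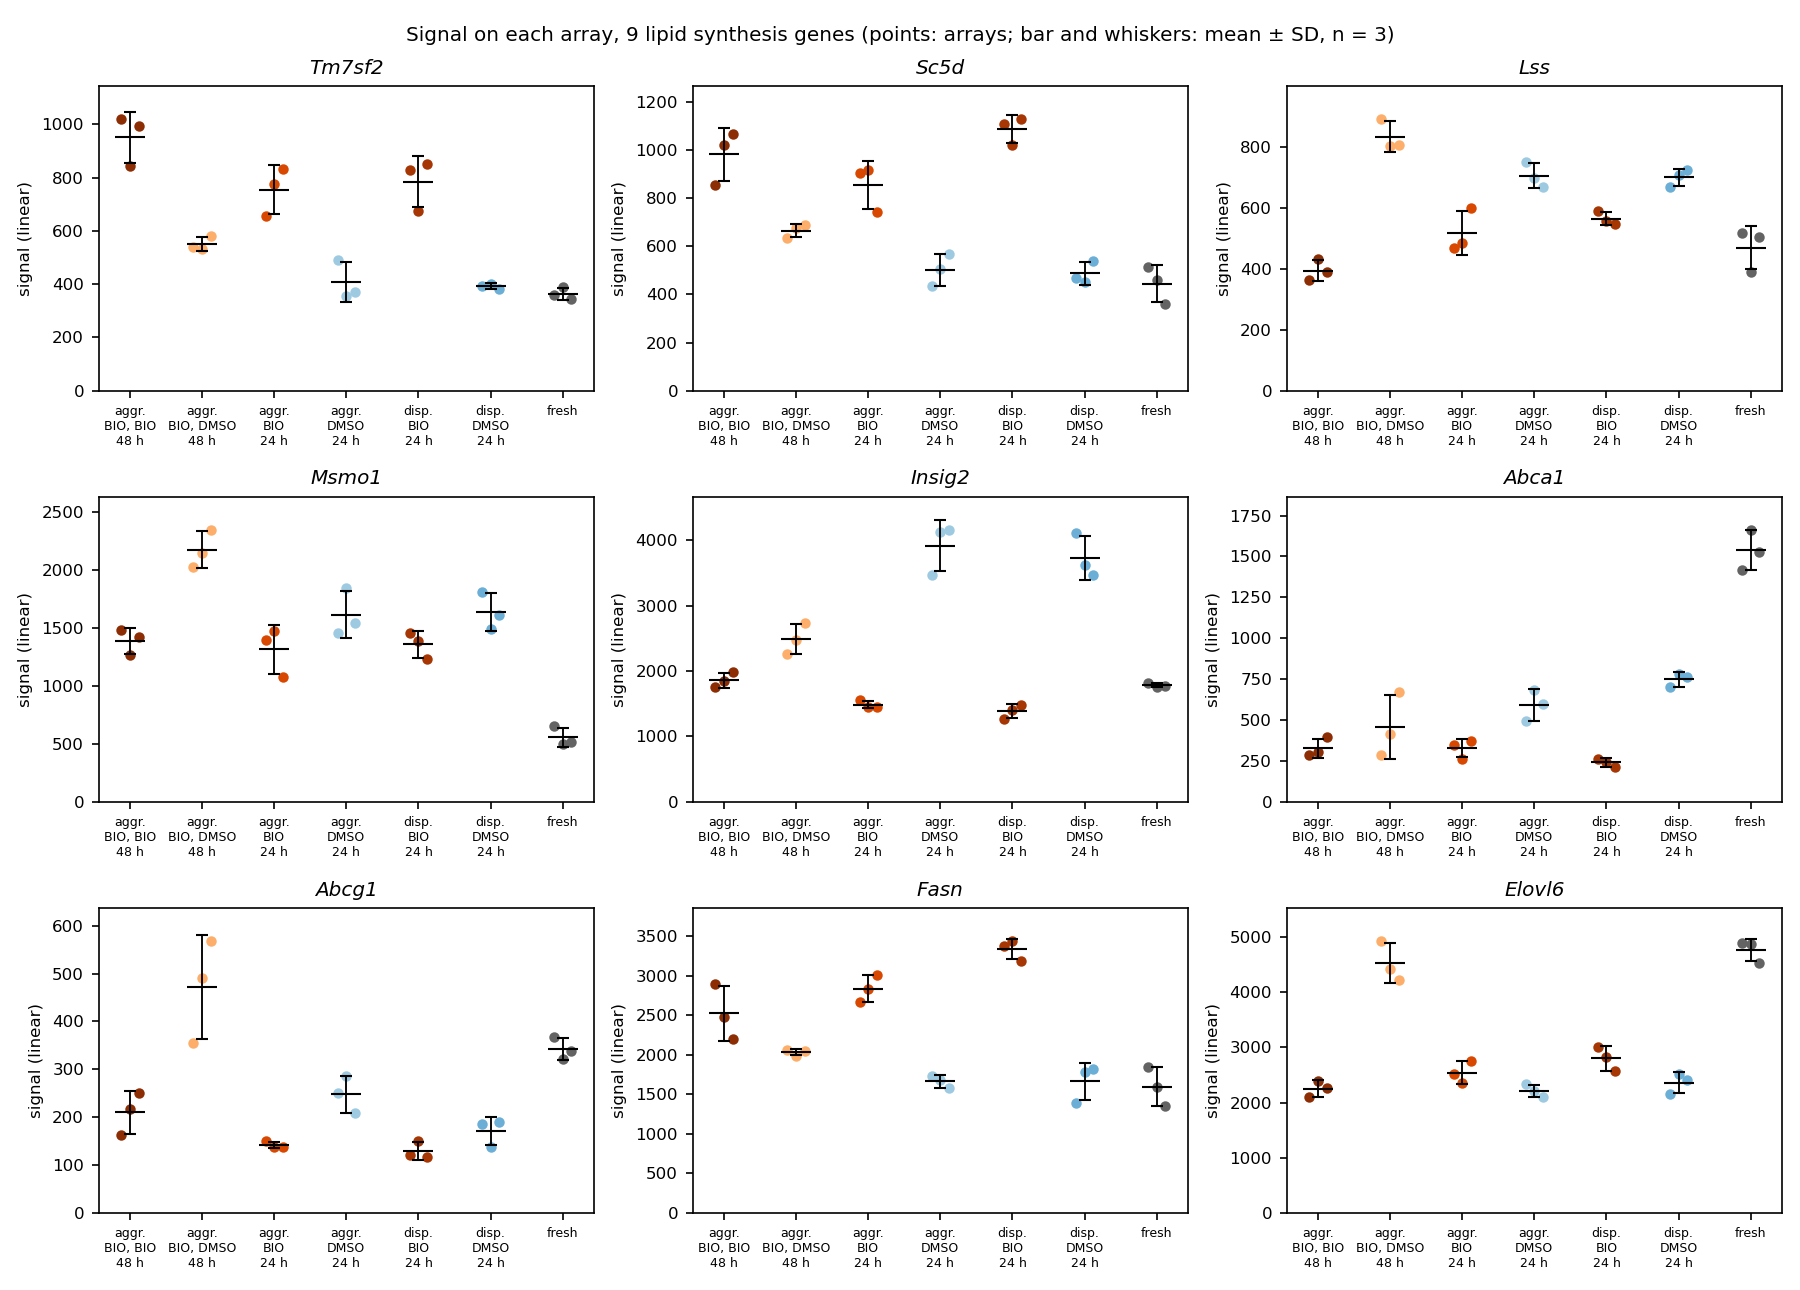
Linear signal of 9 lipid genes on each of 21 arrays by condition, with the mean and SD of 3 arrays. Insig2 is highest in both DMSO groups at 24 h, and Abca1 is highest in fresh cells.

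Promoter sequences are shown for Hmgcs1, the one listed gene with a sterol regulatory element by the letters searched, and for 5 genes that moved with BIO in both formats. RefSeq windows (GRCm38.p6) were at hand for 25 of the 32 genes, 33 windows in all, each running from 250 bases before to 50 after a gene start. The letters searched on both strands were TCACNCCAC for the sterol regulatory element, CCAAT for the NF-Y box, GGGCGG for the GC box and CTTTGAT for a TCF/LEF site. The sterol regulatory element was in 1 of 33 windows and in 1.24% of all 32851 windows. CCAAT was in 21 of 33 and in 37.4% of all windows, GGGCGG in 25 and in 35.7%, and CTTTGAT in 0 and in 3.73%. The 250 bases before the start follow, 5′ to 3′ on the gene's strand, with matches to the sterol regulatory element and to CCAAT on either strand in capitals.
Hmgcs1, chr13:119690101-119690350, plus strand: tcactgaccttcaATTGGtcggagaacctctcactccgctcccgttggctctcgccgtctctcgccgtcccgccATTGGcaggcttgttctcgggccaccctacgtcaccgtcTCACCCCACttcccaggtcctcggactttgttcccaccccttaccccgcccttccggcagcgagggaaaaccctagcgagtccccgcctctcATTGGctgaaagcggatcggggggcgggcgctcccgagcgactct
Tm7sf2, chr19:6067851-6068100, minus strand: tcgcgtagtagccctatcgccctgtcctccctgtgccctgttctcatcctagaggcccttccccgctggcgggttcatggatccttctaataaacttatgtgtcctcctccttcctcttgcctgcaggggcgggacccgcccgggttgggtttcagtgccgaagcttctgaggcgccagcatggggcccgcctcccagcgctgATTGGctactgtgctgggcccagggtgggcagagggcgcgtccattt
Ebp, chrX:8193513-8193762, minus strand: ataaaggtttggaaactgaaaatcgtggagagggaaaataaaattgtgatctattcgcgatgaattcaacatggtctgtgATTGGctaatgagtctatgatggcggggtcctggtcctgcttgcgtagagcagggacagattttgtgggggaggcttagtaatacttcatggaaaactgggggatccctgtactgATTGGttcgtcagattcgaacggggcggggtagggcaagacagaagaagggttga
Sc5d, chr9:42264301-42264550, minus strand: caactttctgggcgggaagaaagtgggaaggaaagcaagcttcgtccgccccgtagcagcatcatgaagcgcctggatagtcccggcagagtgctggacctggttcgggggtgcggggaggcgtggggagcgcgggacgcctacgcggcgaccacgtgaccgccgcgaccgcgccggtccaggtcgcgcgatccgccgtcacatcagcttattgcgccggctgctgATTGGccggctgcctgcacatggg
Fasn, chr11:120824548-120824797, minus strand: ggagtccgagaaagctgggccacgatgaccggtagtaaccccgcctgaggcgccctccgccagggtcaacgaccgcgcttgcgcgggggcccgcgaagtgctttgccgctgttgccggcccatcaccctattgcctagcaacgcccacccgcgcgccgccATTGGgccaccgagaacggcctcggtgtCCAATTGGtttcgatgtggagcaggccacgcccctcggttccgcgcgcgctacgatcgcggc
Insig2, chr1:121332590-121332839, minus strand: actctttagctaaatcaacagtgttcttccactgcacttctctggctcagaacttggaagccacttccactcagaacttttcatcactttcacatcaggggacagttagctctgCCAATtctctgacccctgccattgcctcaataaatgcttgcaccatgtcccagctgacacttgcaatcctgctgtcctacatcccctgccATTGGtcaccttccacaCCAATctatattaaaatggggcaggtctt
In Hmgcs1 the sterol regulatory element begins 137 bases before the start, and CCAAT matches lie on both sides of it. In Fasn a run of 8 capitals holds CCAAT on both strands, overlapping. Insig2 has 3 windows, and CCAAT is in the one shown and not in the others. Of the genes that moved in both formats and are not shown, Hsd17b7 and Srebf1 have CCAAT in a window. Acaca and Abca1 do not.

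Whether the response to BIO depended on aggregation was tested by the interaction. None of the 31 genes passed by limma, beside 1.57% of all genes, 0.726% higher and 0.841% lower, and 6 had an unadjusted p below 0.05. The smallest unadjusted p was that of Hmgcs1, at -0.28 ± 0.09 (adjusted p = 0.147). Thus calls made in one format and not in the other were not shown to differ between formats. Abca1 gave 0.79 ± 0.33 (adjusted p = 0.334) and Scd1 gave 0.71 ± 0.25 (adjusted p = 0.219), with 95% intervals of 0.09 to 1.49 and 0.18 to 1.23.

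Aggregation itself was compared within DMSO and within BIO. In DMSO 1 gene passed, beside 2.63% of all genes, 1.84% higher and 0.792% lower. Mvd, mevalonate diphosphate decarboxylase, had signals of 287, 277 and 338 in aggregates and 207, 223 and 169 in dispersed cells. The groups did not overlap, and Mvd was higher in aggregates by 0.59 ± 0.13 (adjusted p = 0.0267), a call that was lost without the 4 arrays that stood apart and without DMSO aggregates replicate 1 or 3 or DMSO dispersed cells replicate 1 or 3 (0.48 to 0.62, adjusted p of 0.0646 to 0.116). In BIO 2 genes passed, beside 17.2% of all genes, 12.6% higher and 4.66% lower, and both were lower in aggregates. Insig1 had signals of 953, 1058 and 1151 in aggregates and 1533, 1344 and 1493 in dispersed cells, a difference of -0.47 ± 0.12 (adjusted p = 0.0176). Hmgcs1 had signals of 7100.1, 7523 and 7819.6 in aggregates and 8651, 8822 and 8697 in dispersed cells, a difference of -0.22 ± 0.06 (adjusted p = 0.021). Neither pair of groups overlapped. The Insig1 call was lost without BIO aggregates replicate 1 or BIO dispersed cells replicate 1 or 3 (-0.45 to -0.40, adjusted p of 0.0542 to 0.0731), and the Hmgcs1 call without BIO aggregates replicate 1 or 2 or BIO dispersed cells replicate 1, 2 or 3 (-0.23 to -0.19, adjusted p of 0.0527 to 0.0868).

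On the second day, aggregates kept in BIO were compared with aggregates moved to DMSO after the same first day in BIO. With BIO kept, 4 of the 31 genes were higher and 8 were lower, beside 20.4% of all genes passing, 11.1% higher and 9.29% lower, with a median of -0.14 for the listed genes and 0.06 for all genes. The lower genes included 5 sterol enzymes, Lss, Msmo1, Fdft1, Sqle and Idi1. Lss had signals of 362, 432 and 389 with BIO kept and 892, 802 and 807 after the move to DMSO. The groups were far apart, at -1.08 ± 0.12 (adjusted p = 3.65e-06). Msmo1, the sterol methyl oxidase, had signals of 1482, 1262 and 1421 with BIO kept and 2025, 2148 and 2346 after the move. Its groups did not overlap, at -0.65 ± 0.14 (adjusted p = 0.0028). Fdft1, squalene synthase, fell by 0.45 ± 0.11 (adjusted p = 0.00851), Sqle, squalene epoxidase, by 0.32 ± 0.08 (adjusted p = 0.00623) and Idi1 by 0.35 ± 0.11 (adjusted p = 0.0337).

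Elovl6 and Abcg1 were also lower with BIO kept. Elovl6 had signals of 2105, 2397 and 2261 with BIO kept and 4938, 4422 and 4229 after the move to DMSO. Each BIO array was below each DMSO array, at -1.01 ± 0.09 (adjusted p = 8.18e-07). Abcg1 had signals of 162, 217 and 251 with BIO kept and 355, 492 and 569 after the move, a difference of -1.16 ± 0.19 (adjusted p = 0.000311). Insig2 fell by 0.42 ± 0.10 (adjusted p = 0.0055), while its other 2 probe sets did not pass. Scap had signals of 1200.0, 1049 and 1097 with BIO kept and 733, 729.7 and 694 after the move, without overlap. The 4 higher genes were Tm7sf2 at 0.78 ± 0.13 (adjusted p = 0.000329), Scap at 0.63 ± 0.15 (adjusted p = 0.00668), Sc5d at 0.56 ± 0.14 (adjusted p = 0.00815) and Mvd at 0.47 ± 0.13 (adjusted p = 0.0152). Fasn gave 0.30 ± 0.13 (adjusted p = 0.108) and Acaca -0.36 ± 0.13 (adjusted p = 0.0664). The Mvd call was lost without BIO, BIO aggregates replicate 2 or BIO, DMSO aggregates replicate 1 (0.42, adjusted p of 0.0642 to 0.0663), and the Idi1 call without BIO, BIO aggregates replicate 1 or 2 or BIO, DMSO aggregates replicate 3 (-0.35 to -0.21, adjusted p of 0.0814 to 0.162). In a fit on the arrays of these groups alone 6 genes passed. Averaging all probe sets lost the calls of Fdft1, Insig2, Sc5d and Scap and newly called Scd1 and Stard4. Of 9 cell cycle genes, 8 were lower with BIO kept on the second day, whereas 7 were higher with BIO at 24 h in each format, and their part in the lipid gene values was not tested.

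Culture was compared with fresh cells, and since all 4 such comparisons share the fresh arrays their values are set side by side only. In DMSO aggregates 11 of the 31 genes were higher than in fresh cells and 2 lower, beside 32.9% of all genes, 18.4% higher and 14.5% lower. In DMSO dispersed cells 8 were higher and 6 lower, beside 33.3%, 2725 genes higher and 3326 (18.3%) lower. The share of listed genes passing was 41.9% in DMSO aggregates and 45.2% in DMSO dispersed cells. Among the 11500 genes above background on all arrays it was 43.2% and 44.2%. Msmo1 had signals of 1456, 1842 and 1539 in DMSO aggregates and 1809, 1489 and 1606 in DMSO dispersed cells, against 649, 502 and 512 in fresh cells. Every culture array exceeded every fresh array, by 1.54 ± 0.14 (adjusted p = 3.1e-07) in aggregates and 1.56 ± 0.14 (adjusted p = 2.28e-07) in dispersed cells. With the mean of all its probe sets Msmo1 passed in neither. In fresh cells Insig2 had 1813, 1759.8 and 1764, below all DMSO arrays given above, and the differences were 1.13 ± 0.10 (adjusted p = 2.04e-07) and 1.06 ± 0.10 (adjusted p = 3.66e-07). Scap had signals of 1180.5, 1099.7 and 1092 in DMSO aggregates and 1062, 743 and 1157 in DMSO dispersed cells, against 615, 601 and 424 in fresh cells. Its culture arrays all exceeded the fresh ones, by 1.06 ± 0.15 (adjusted p = 4.8e-05) in aggregates and 0.85 ± 0.15 (adjusted p = 0.000353) in dispersed cells. Both Scap calls were lost with the mean of all its probe sets. Lss was higher by 0.60 ± 0.12 (adjusted p = 0.000777) in aggregates and 0.59 ± 0.12 (adjusted p = 0.000798) in dispersed cells, and Cyp51 by 0.68 ± 0.12 (adjusted p = 0.00031) in aggregates and 0.53 ± 0.12 (adjusted p = 0.00241) in dispersed cells. For Fdft1 the differences were 0.58 ± 0.11 (adjusted p = 0.000735) in aggregates and 0.33 ± 0.11 (adjusted p = 0.0308) in dispersed cells. For Sqle they were 0.22 ± 0.08 (adjusted p = 0.0326) in aggregates and 0.23 ± 0.08 (adjusted p = 0.0263) in dispersed cells. With the mean of all their probe sets Fdft1 and Sqle passed in neither format. The Sqle calls were lost without DMSO aggregates replicate 2 or 3 or fresh cells replicate 1 or 3 (0.17 to 0.23, adjusted p of 0.0663 to 0.133) in aggregates and DMSO dispersed cells replicate 1, 2 or 3 or fresh cells replicate 1 or 3 (0.18 to 0.24, adjusted p of 0.0568 to 0.117) in dispersed cells, and the Fdft1 call in dispersed cells without DMSO dispersed cells replicate 2 or 3 or fresh cells replicate 2 or 3 (0.23 to 0.34, adjusted p of 0.0637 to 0.159). Mvk, Dhcr7, Nsdhl and Hmgcs1 were higher in DMSO aggregates alone among these 2 comparisons, by 1.52 ± 0.46, 0.75 ± 0.24, 0.25 ± 0.08 and 0.22 ± 0.06. Their calls were lost without DMSO aggregates replicate 1 or fresh cells replicate 2 (0.88 to 1.45, adjusted p of 0.0549 to 0.107) for Mvk, DMSO aggregates replicate 1 or 2 or fresh cells replicate 2 (0.56 to 0.71, adjusted p of 0.0726 to 0.129) for Dhcr7, DMSO aggregates replicate 1 or fresh cells replicate 1 or 3 (0.18 to 0.24, adjusted p of 0.0613 to 0.114) for Nsdhl and DMSO aggregates replicate 1 (0.18, adjusted p = 0.0518) for Hmgcs1. With the mean of all probe sets the Mvk and Hmgcs1 calls in aggregates were lost, and Hmgcs1 was newly called in dispersed cells.

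Lower in culture were Elovl6 and Abca1. Elovl6 had signals of 2332, 2200.5 and 2109 in DMSO aggregates and 2146, 2522 and 2407 in DMSO dispersed cells, against 4889.7, 4884 and 4540.4 in fresh cells. Culture arrays were all below the fresh arrays, at -1.11 ± 0.09 (adjusted p = 1.53e-07) and -1.02 ± 0.09 (adjusted p = 3.48e-07). Abca1 had signals of 1420.2, 1664 and 1527 in fresh cells, above every culture array, at -1.39 ± 0.23 (adjusted p = 0.000226) and -1.04 ± 0.23 (adjusted p = 0.00238). Its second probe set had mean signals of 69 in fresh cells, 85 in DMSO aggregates and 75 in DMSO dispersed cells. Both Abca1 calls were lost with the mean of all its probe sets. In DMSO dispersed cells Abcg1, Pmvk, Acaca and Srebf1 were also lower than in fresh cells, at -1.01 ± 0.19, -0.45 ± 0.11, -0.45 ± 0.13 and -0.36 ± 0.13. With the mean of all probe sets the Abcg1 and Acaca calls in this comparison were lost. The Acaca call was lost without DMSO dispersed cells replicate 1 or 3 or fresh cells replicate 1 (-0.41 to -0.32, adjusted p of 0.0513 to 0.077) and the Srebf1 call without DMSO dispersed cells replicate 1 or 3 or fresh cells replicate 1 or 3 (-0.39 to -0.28, adjusted p of 0.0551 to 0.149). Scd1 was higher there by 0.65 ± 0.17 (adjusted p = 0.00813).

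With BIO, 15 genes were higher and 4 lower than in fresh cells in aggregates, beside 33.7% of all genes, 21.9% higher and 11.8% lower. In BIO dispersed cells 13 were higher and 5 lower, beside 25.9%, 12.7% higher and 13.2% lower. The share of listed genes passing was 61.3% in BIO aggregates and 58.1% in BIO dispersed cells. Among the 11500 genes above background on all arrays it was 44.2% and 34%. Insig2, above its fresh level in DMSO, gave -0.26 ± 0.10 (adjusted p = 0.0528) in BIO aggregates and -0.36 ± 0.10 (adjusted p = 0.0115) in BIO dispersed cells. Abca1 was -2.24 ± 0.23 and -2.68 ± 0.23 from fresh cells, and Scap 1.19 ± 0.15 and 1.30 ± 0.15. Higher in BIO aggregates were Idi1, Fdft1, Sqle, Cyp51, Tm7sf2, Msmo1, Ebp, Sc5d, Dhcr7, Srebf1, Scap, Stard4, Fasn, Scd1 and Acaca, and lower were Pmvk, Abca1, Abcg1 and Elovl6. Higher in BIO dispersed cells were Hmgcs1, Idi1, Sqle, Cyp51, Tm7sf2, Msmo1, Hsd17b7, Ebp, Sc5d, Scap, Stard4, Fasn and Acaca, and lower were Pmvk, Insig2, Abca1, Abcg1 and Elovl6. Adjusting for beta-actin kept 7 of the 19 calls in BIO aggregates. There, averaging all probe sets lost the calls of Abca1, Abcg1, Acaca, Msmo1, Scap, Srebf1 and Stard4 and newly called Lss. In BIO dispersed cells it lost those of Abcg1, Acaca, Insig2, Msmo1 and Stard4 and newly called Scd1. In BIO aggregates the Acaca call was lost without BIO aggregates replicate 1, 2 or 3 or fresh cells replicate 2 or 3 (0.28 to 0.41, adjusted p of 0.0511 to 0.162) and the Srebf1 call without BIO aggregates replicate 1 or 2 or fresh cells replicate 1, 2 or 3 (0.26 to 0.38, adjusted p of 0.0641 to 0.184). The Scd1 call was lost without BIO aggregates replicate 1 or 2 or fresh cells replicate 1 or 2 (0.35 to 0.54, adjusted p of 0.0543 to 0.177), the Sqle call without BIO aggregates replicate 1 or 2 or fresh cells replicate 1 or 3 (0.18 to 0.24, adjusted p of 0.0516 to 0.104) and the Dhcr7 call without BIO aggregates replicate 3 or fresh cells replicate 2 (0.57 to 0.67, adjusted p of 0.0814 to 0.124). In BIO dispersed cells the Hsd17b7 call was lost without BIO dispersed cells replicate 1 or 3 or fresh cells replicate 2 or 3 (0.24 to 0.27, adjusted p of 0.0775 to 0.123), the Insig2 call without BIO dispersed cells replicate 1 (-0.30, adjusted p = 0.0623) and the Pmvk call without BIO dispersed cells replicate 2 (-0.35, adjusted p = 0.0511).

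**Figure D4:**
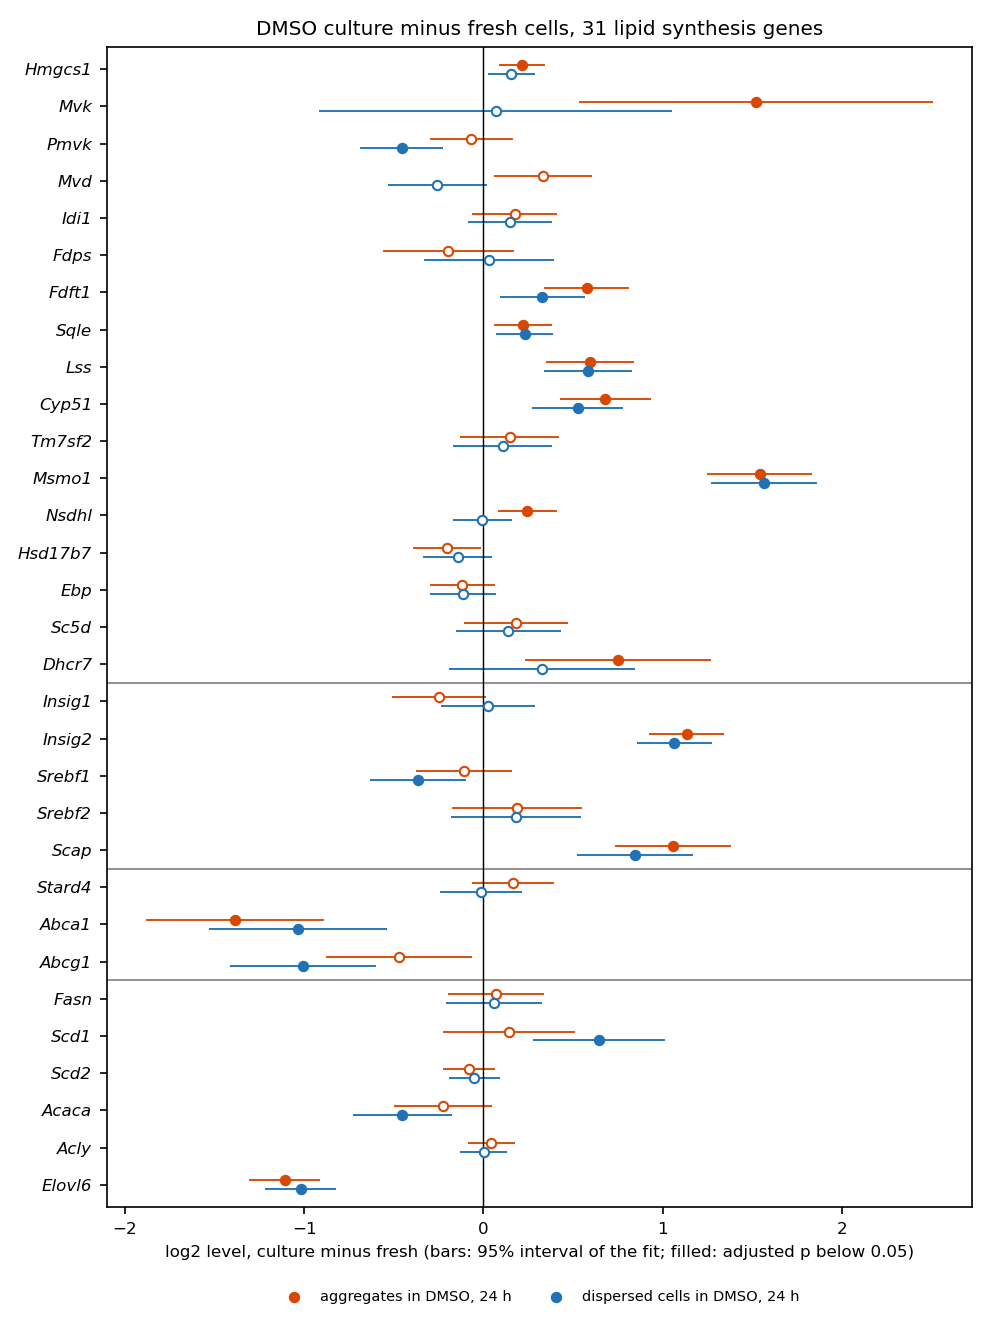
DMSO culture minus fresh cells (log2, horizontal axis) for 31 lipid genes in aggregates and dispersed cells, with 95% intervals and filled points where the adjusted p was below 0.05. Msmo1 lies near 1.5 in both formats, and Abca1 and Elovl6 lie below -1.

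Between 24 h and 48 h, 6 genes rose and 2 fell in aggregates kept in BIO, beside 20.8% of all genes, 8.05% higher and 12.8% lower. In aggregates moved to DMSO 14 rose and 3 fell, beside 24.9%, 8.66% higher and 16.2% lower. Both comparisons share the BIO aggregates at 24 h. Scd1 had signals of 1359, 1050.2 and 1508 with BIO kept and 833, 1115 and 1192 after the move, against 384, 499 and 375 at 24 h. Both 48 h groups lay above all 24 h arrays, by 1.63 ± 0.17 (adjusted p = 5.06e-06) and 1.31 ± 0.17 (adjusted p = 4.18e-05). After the move to DMSO Abcg1 rose by 1.70 ± 0.19 (adjusted p = 7.66e-06), Elovl6 by 0.83 ± 0.09 (adjusted p = 7.71e-06) and Insig2 by 0.74 ± 0.10 (adjusted p = 4.5e-05). Scap, Fasn and Tm7sf2 fell, by 0.78 ± 0.15, 0.48 ± 0.13 and 0.45 ± 0.13, the Tm7sf2 call being lost without BIO, DMSO aggregates replicate 1 or 2 or BIO aggregates replicate 2 or 3 (-0.43 to -0.37, adjusted p of 0.055 to 0.0777). Fdps, farnesyl diphosphate synthase, had signals of 435, 369 and 291 with BIO kept and 355, 424 and 519.6 after the move, against 213, 227 and 201 at 24 h. Both 48 h groups of Fdps lay above the 24 h arrays. With BIO kept Fdps rose by 0.75 ± 0.17 (adjusted p = 0.00494) and Nsdhl by 0.53 ± 0.08 (adjusted p = 0.000124), and Acaca fell by 0.59 ± 0.13 (adjusted p = 0.00397). The genes that passed after the move were Hmgcs1, Idi1, Fdps, Fdft1, Sqle, Lss, Msmo1, Nsdhl, Insig1, Insig2, Stard4, Abcg1, Scd1 and Elovl6, higher, and Tm7sf2, Scap and Fasn, lower. Those that passed with BIO kept were Hmgcs1, Pmvk, Fdps, Nsdhl, Insig2 and Scd1, higher, and Lss and Acaca, lower. Adjusting for beta-actin kept 4 of the 17 calls after the move to DMSO and 3 of the 8 with BIO kept, where Mvd and Sc5d were newly called. Averaging all probe sets lost the calls of Fdft1, Fdps and Scap after the move. With BIO kept it lost those of Acaca, Fdps, Insig2, Lss and Pmvk and newly called Mvd and Stard4. With BIO kept, the Gapdh ratio as a covariate lost the calls of Acaca, Fdps, Insig2, Lss, Nsdhl and Pmvk. With BIO kept, the Pmvk call was lost without BIO, BIO aggregates replicate 1, 2 or 3 or BIO aggregates replicate 1, 2 or 3 (0.25 to 0.37, adjusted p of 0.0506 to 0.185), the Insig2 call without BIO, BIO aggregates replicate 2 or 3 or BIO aggregates replicate 2 or 3 (0.27 to 0.32, adjusted p of 0.0609 to 0.102) and the Lss call without BIO, BIO aggregates replicate 1 or 3 or BIO aggregates replicate 3 (-0.38 to -0.27, adjusted p of 0.0623 to 0.121). After the move, the Stard4 call was lost without BIO, DMSO aggregates replicate 3 or BIO aggregates replicate 2 or 3 (0.23 to 0.35, adjusted p of 0.0622 to 0.131).

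Where a gene had several probe sets, they did not always move alike. Of the measured genes, 9 had 1 probe set and 22 had several. Of 67 called results in 14 genes with another probe set above background, 35 had a call in the same direction, 1 in the opposite and 31 neither. The second probe set of Sc5d gave 0.10 ± 0.11 (adjusted p = 0.59) with BIO in aggregates and -0.30 ± 0.11 (adjusted p = 0.0793) in dispersed cells, unlike the brighter one. For Hsd17b7 the next brightest gave 0.00 ± 0.27 (adjusted p = 0.995) and -0.04 ± 0.27 (adjusted p = 0.942). The second probe set of Lss gave -0.18 ± 0.13 (adjusted p = 0.435) on the second day. A dimmer Lss probe set averaged 64 ± 35 with BIO kept and 124 ± 13 after the move to DMSO (SD). The second averaged 441 in fresh cells, 504 in DMSO aggregates and 461 in DMSO dispersed cells. With the mean of all Lss probe sets both calls of DMSO culture against fresh cells held. Elovl6 fell on the second day in its second probe set too, at -1.59 ± 0.37 (adjusted p = 0.0074). A second probe set of Stard4 was lower in BIO aggregates than in fresh cells, at -1.04 ± 0.26 (adjusted p = 0.00695), where the brighter one was higher.

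**Figure D5:**
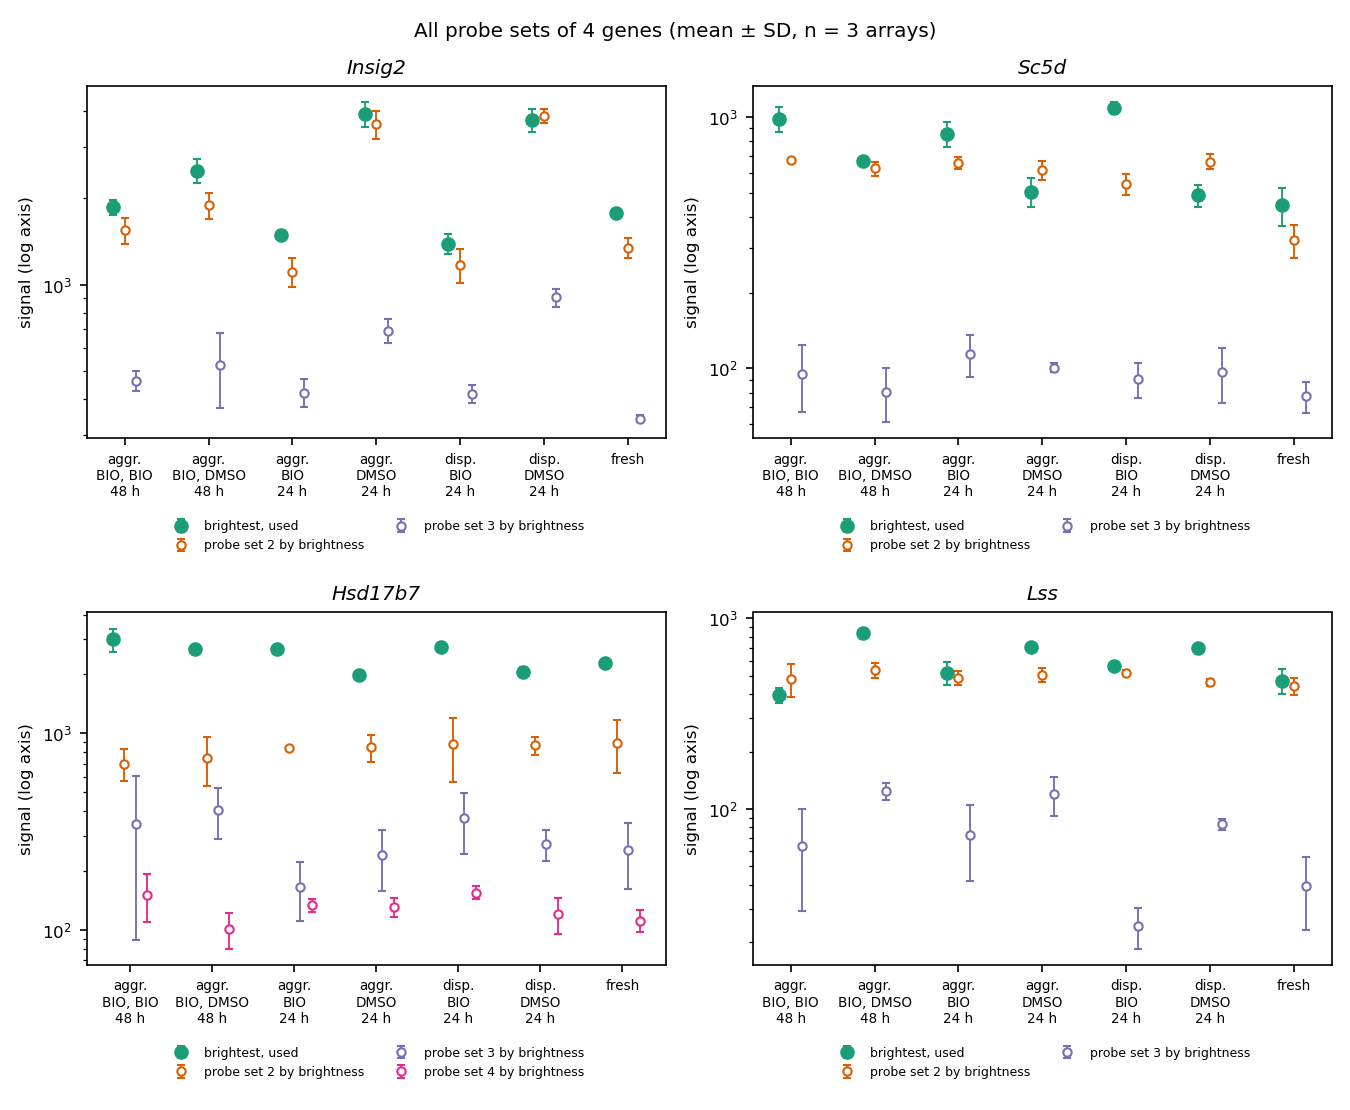
Mean signal (log axis) of each probe set of Insig2, Sc5d, Hsd17b7 and Lss by condition, with SD of 3 arrays. The Insig2 probe sets move together between BIO and DMSO at 24 h, whereas in Sc5d, Hsd17b7 and Lss the brightest and the next differ.

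Neighbouring pathway genes, listed separately, were counted in the same way for BIO against DMSO, where 30.0% of all genes passed in aggregates, 28.8% in dispersed cells and 20.4% on the second day. Of 8 other sterol and isoprenoid genes, 2 rose and 1 fell in aggregates, 3 and 2 in dispersed cells, and 2 and 0 on the second day. Tmem97, a sterol-responsive membrane protein, rose by 1.23 (adjusted p = 0.000273) in aggregates and 0.87 (adjusted p = 0.00482) in dispersed cells, and Cyb5r3, a reductase of cytochrome b5, gave -0.97 (adjusted p = 0.000144) and -1.03 (adjusted p = 7.94e-05). Of 6 genes of SREBP cleavage and sterol-sensing degradation 1 rose in each format, Mbtps2, a protease that cuts SREBP, by 0.41 (adjusted p = 0.0363) and 0.57 (adjusted p = 0.00568). Of 7 LXR, esterification and efflux genes 3 rose and 1 fell in each format. Mylip, an LXR-induced ubiquitin ligase for lipoprotein receptors, rose by 1.88 (adjusted p = 5.31e-10) and 1.59 (adjusted p = 2.91e-09), while Abca1 fell. Of 12 other fatty acid genes 3 rose and 3 fell in aggregates, and 2 rose and 3 fell in dispersed cells. Acsl3, which activates long-chain fatty acids, rose by 1.47 (adjusted p = 8.06e-07) in aggregates and 1.77 (adjusted p = 8.01e-08) in dispersed cells. Acss2, which makes acetyl-CoA from acetate, rose by 1.09 (adjusted p = 9.18e-06) in aggregates, 1.72 (adjusted p = 4.59e-08) in dispersed cells and 1.24 (adjusted p = 3.54e-06) on the second day. Me1, malic enzyme, a source of NADPH, gave -1.79 (adjusted p = 1.84e-07) and -1.36 (adjusted p = 3.68e-06). Of 5 uptake genes 1 rose in aggregates and 3 in dispersed cells, Lpl, lipoprotein lipase, by 1.35 (adjusted p = 8.12e-05) and 1.83 (adjusted p = 3.19e-06). All 7 canonical Wnt targets measured rose with BIO in both formats and on the second day, with a median of 3.47 in aggregates and 4.25 in dispersed cells.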

How the data were processed

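Expression was measured on 21 mouse arrays of 45101 probe sets, 3 in each of 7 groups taken from sample titles. The growth protocol in the labels describes aggregation for every sample, also those titled dispersed or fresh. RNA was amplified in 2 rounds, per the labels' protocols. The deposited values are linear signal intensity from 0.1 to 18025.33. Neither labels nor header name the software or scaling (not given in the sources used here). A log2 table had been allowed for, but the values were linear, so log2(intensity + 1) was taken and then quantile normalized between arrays. The linear signals given are these values turned back.

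Probe sets with a single symbol (34945) were kept, 932 with several symbols and 9160 with none were left out, and the probe set with the highest mean stood for a gene. Tests used limma 3.58.1 (R 4.3.3), a single model over all 7 groups with a shared spread, and Benjamini-Hochberg adjustment over 18193 genes at 0.05. A gene counted as above background where it exceeded the 95th percentile of the 27 bacterial controls. No array pair shared over 0.288% of probe set values, so none was a duplicate. Same-numbered arrays did not deviate together (correlations of -0.39 to 0.26 over 63 pairs), so numbers were not used as pairs.

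All 32 listed genes are accounted for. Per-array values are given for genes past the threshold whose groups do not overlap, mainly those with the larger differences of each role, and the other genes by difference and error or by name. Members and gene lists were chosen with earlier results of these data known. The number of arrays limits precision. The alternatives were other pseudocounts, scalings, filters, probe set rules, array subsets and a replicate block. Covariates for Gapdh and beta-actin, and leaving out the 4 arrays that stood apart, were chosen after seeing the data. Plots used matplotlib 3.10.9 and Python 3.11.15.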

Additional observations from a re-analysis of the deposited data

How the results depend on the processing

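Counts are of listed genes passing limma's test at an adjusted p of 0.05. When log2 beta-actin signal entered the model they were 4 for BIO in aggregates (main 13), 1 for the interaction (0) and 1 for aggregates against dispersed cells in BIO (2), both Sc5d and newly called, 7 for BIO aggregates against fresh cells (19), 5 for the second day in BIO (8, of which 3 held) and 4 for the second day in DMSO (17). With the Gapdh ratio as a covariate they were 0 for aggregates against dispersed cells in DMSO (main 1), 0 in BIO (2) and 2 for the second day in BIO (8). Without the 4 arrays that stood apart they were 0 for aggregates against dispersed cells in DMSO and 5 for the second day in BIO. In fits on the arrays compared alone they were 6 for BIO against DMSO on the second day (main 12), 0 for aggregates against dispersed cells in DMSO and 0 in BIO, 7 for DMSO aggregates against fresh cells (13) and 3 for the second day in BIO. With the mean of all probe sets they were 6 for aggregates against dispersed cells in BIO, 8 for DMSO aggregates and 9 for DMSO dispersed cells against fresh cells (13 and 14), and 5 for the second day in BIO. On deposited values with no quantile normalization the count was 0 for aggregates against dispersed cells in DMSO. The cause was not tested.

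The mean of all probe sets also turned 5 signs: Hsd17b7 with BIO in aggregates (-0.00991), Lss in aggregates against dispersed cells in BIO (0.42), Abca1 (0.0145) and Fdft1 (-0.11) in DMSO dispersed cells against fresh cells, and Stard4 in BIO aggregates against fresh cells (-0.012). Leaving out 1 array at a time gave 11 to 13 for BIO in aggregates, 10 to 12 in dispersed cells, 11 to 14 for the second day BIO against DMSO and 0 to 0 for the interaction. It gave 0 to 1 for aggregates against dispersed cells in DMSO and 0 to 3 in BIO. Against fresh cells it gave 9 to 12 for DMSO aggregates, 10 to 13 for DMSO dispersed cells, 15 to 17 for BIO aggregates and 16 to 18 for BIO dispersed cells. From 24 h to 48 h it gave 5 to 8 in BIO and 16 to 18 in DMSO. With the replicate block, the counts were 13 for BIO in aggregates, 13 in dispersed cells and 12 on the second day, and 125 of 131 calls held. Lost were Cyp51 with BIO in dispersed cells, Acaca, Scd1 and Srebf1 in BIO aggregates and Hsd17b7 in BIO dispersed cells against fresh cells, and Pmvk on the second day in BIO. Of 131 calls, 57 held in every alternative listed at the outset and 44 in every alternative run.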
